A study of Mus musculus with 2 samples.

Results

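The genes described here encode the nuclear-encoded subunits of mitochondrial complex I and the factors that assemble it. They were taken as the entries of the deposited gene table whose symbol starts with Ndufa, Ndufb, Ndufc, Ndufs, Ndufv, Ndufab or Ndufaf followed by a digit, which gave 42 of 30385 entries. The rule reads gene symbols only. The members were 7 core subunits, 29 accessory subunits, 4 assembly factors, and Ndufa4 with its paralogue Ndufa4l2, which were kept apart because Ndufa4 is now placed in complex IV.

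The series compared hearts of wild-type mice (WT) with hearts of MHC403/+ mice (the MHC403 library), which carry a human missense mutation of the myosin heavy chain and model hypertrophic cardiomyopathy. RNA was measured by 5′RNA-seq, in which intact polyA RNA is sequenced without fragmentation so that reads collect near transcription start sites. All mice were of the 129/SvEv strain and 8 to 16 weeks old, and both genotypes were treated with CsA (cyclosporine A), injected subcutaneously at 15 mg/kg 2 times a day for 2 weeks. Replicate animals had been pooled, so there was 1 library per genotype. The labels do not state how many animals a pool held, and no untreated library was analysed here. Without replicate libraries, the spread between animals is unknown and no test between the genotypes was possible.

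Complex I (NADH:ubiquinone oxidoreductase) is the entry point of most electrons into the respiratory chain. It takes electrons from NADH through a flavin and a chain of iron-sulfur clusters to ubiquinone, and pumps protons across the inner mitochondrial membrane. Its matrix arm carries the redox centres and its membrane arm the proton channels. The core subunits are shared with bacteria, and those of the membrane arm are encoded on the mitochondrial chromosome, while the accessory subunits were added later in evolution and surround the core. Assembly factors bind intermediates and leave before the enzyme is finished. Cardiac muscle depends heavily on this enzyme because oxidative phosphorylation supplies most of its ATP.

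Gene reads totalled 5468677 for MHC403 and 5481123 for WT. Each ratio divides MHC403 by WT, both scaled to these totals, and the ranges in parentheses are exact (Clopper-Pearson) 95% intervals, which cover counting error only. Genes are called measured when 1 of the libraries had 50 or more reads, which held for 9507 entries and for all 42 members. The members' higher read number ran from 137 to 11531 with a median of 2066. Most measured genes were higher in the MHC403 library under this scaling, with a median log2 ratio of 0.57, so each count of members is set beside the share of all measured genes. All 8 cardiomyocyte markers examined were measured. With library totals 5 of them had an interval wholly below 1, 2 wholly above 1 and 1 across 1. Among them, cardiac troponin T, Tnnt2, had 61930 reads in MHC403 and 58949 in WT, and Ckm had 7066 and 12865.

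With library totals, transcripts of complex I were lower in the MHC403 library across nearly the whole set. Of the 42 members 39 had a ratio below 1, compared with 19.3% of measured genes, and in 35 the counting interval lay wholly below 1, compared with 10.3%. It lay wholly above 1 in 2 members, compared with 63.2% of measured genes. The median log2 ratio was -0.34, that is 1.26-fold lower and 0.91 below the median of all measured genes. Together the members held 90902 reads in MHC403 and 124140 in WT, or 1.66% (1.65 to 1.67) and 2.26% (2.25 to 2.28) of all reads, so the sum was 1.36-fold (1.35 to 1.37) lower. In these bulk libraries, fewer cells of a type and less RNA per cell cannot be told apart.

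The members lay close together, and the sizes given here are those with library totals; other scalings, described further on, move them all alike. The central 50% of members lay between log2 ratios of -0.50 and -0.21, a width of 0.29. For the 1667 genes with 500 or more reads in the higher library, a depth nearer to that of most members, the width was 0.97 and the median 0.53. Of these deeper genes 25.3% had a ratio below 1, 21.2% an interval wholly below 1 and 69.9% an interval wholly above 1. Past 1.5-fold there were 6 lower members, against 5.62% of measured genes, and 1 higher, against 49.1%. Past 2-fold there were 3 lower members, against 2.43% of measured genes, and 0 higher, against 26.1%. In the deeper genes the same shares were 7.98% at least 1.5-fold lower, 46% at least 1.5-fold higher, 3.24% at least 2-fold lower and 23.4% at least 2-fold higher. The members were nonetheless not all alike: in 30 of 42 the interval excluded the ratio of their summed reads, with 8 lower and 22 higher than it. Across the 42 members the log2 ratio and the mean number of reads scaled to a common library size had a Spearman correlation of -0.44, a description over genes of the same 2 libraries.

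**Figure D1:**
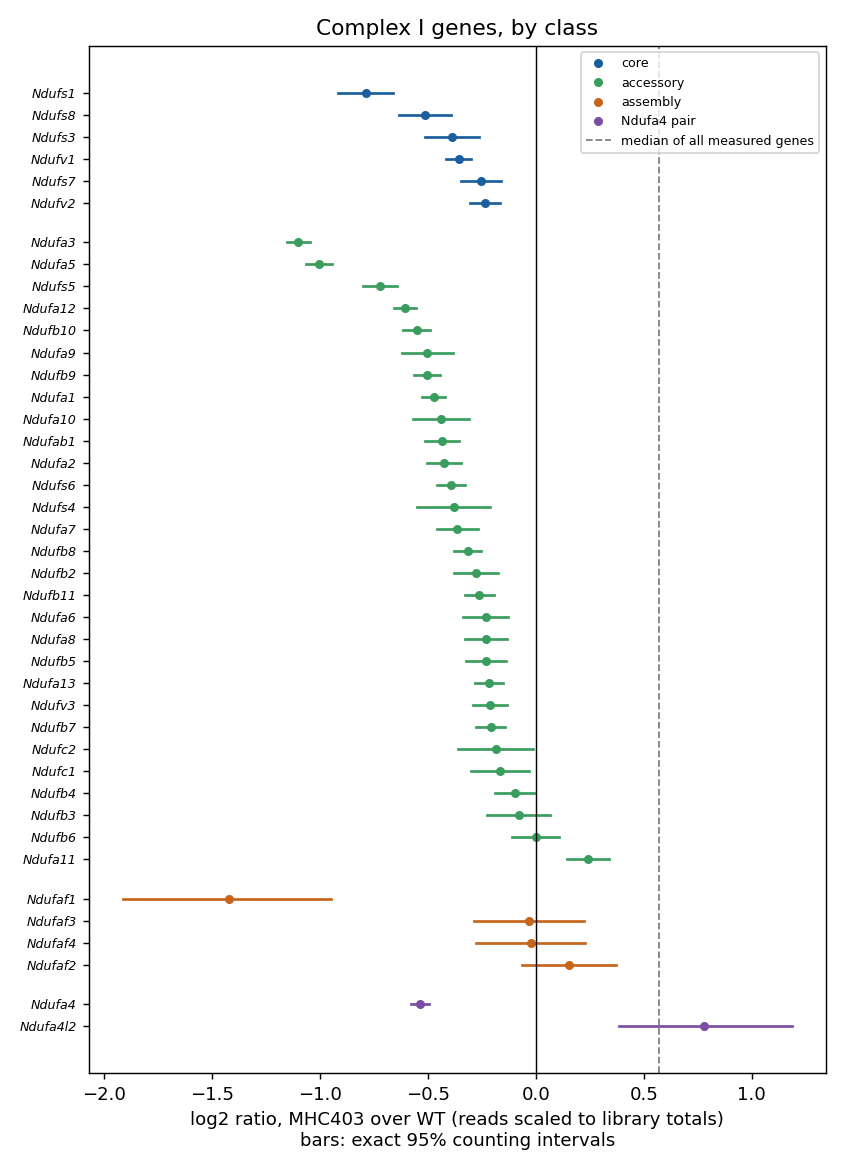
Log2 ratio of MHC403 over WT (x axis, scaled to library totals) for single complex I genes, grouped as core, accessory, assembly and the Ndufa4 pair; points are ratios, bars exact 95% counting intervals, and the dashed line is the median of all measured genes at 0.57. The core genes shown and 28 of 29 accessory genes lie left of 0, and Ndufa11, the exception, falls to -0.31 with median-of-ratios scaling.

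Each of the 7 nuclear core subunits was lower in MHC403, with the interval below 1 in 7 of 7 and a median log2 ratio of -0.39. Ndufs1, the largest subunit and a carrier of iron-sulfur clusters near the NADH site, had 808 reads in MHC403 and 1400 in WT, 1.73-fold (1.58 to 1.89) lower, and was the core gene that passed 1.5-fold. Ndufs8, which holds clusters further along the path to ubiquinone, had 956 reads against 1369 in WT, 1.43-fold (1.31 to 1.55) lower. These intervals do not overlap, so within the core the deficit of Ndufs1 exceeded that of Ndufs8 by more than the counting error.

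Ndufs3 forms part of the quinone module at the foot of the matrix arm. It had 906 reads in MHC403 and 1189 in WT, a 1.31-fold (1.20 to 1.43) deficit, and its log2 ratio was the median of the core. The flavin-binding subunit Ndufv1, which oxidises NADH, had 4015 reads in MHC403 and 5160 in WT and was 1.28-fold (1.23 to 1.34) lower. Ndufs7, which carries the last cluster before ubiquinone, had 1795 and 2147 reads, 1.19-fold (1.12 to 1.27) lower. Ndufv2, the partner of Ndufv1, had 3091 and 3654, 1.18-fold (1.12 to 1.24) lower. Ndufv1 and Ndufv2 thus had intervals that overlap that of Ndufs3. The smallest deficits of the core, those of Ndufs7 and Ndufv2, had overlapping intervals. Both moved to log2 ratios above 0, 0.023 and 0.040, when reads were scaled to cardiomyocyte markers.

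Among the 29 accessory subunits 28 had a ratio below 1, and the interval lay below 1 in 26, above 1 in 1 and across 1 in 2. The median log2 ratio was -0.32, and 4 genes were at least 1.5-fold lower. Ndufa3, a small protein of the membrane arm (mm9 chromosome 7, 3568975 to 3571763), had 4162 reads in MHC403 and 8953 in WT. It was 2.15-fold (2.07 to 2.23) lower. Ndufa5, a subunit of the quinone module in the matrix arm (chromosome 6, 24468666 to 24477687), had 3246 reads in MHC403 and 6530 in WT, 2.01-fold (1.92 to 2.09) lower. These 2 genes stood apart from the other subunits, none of which reached 2-fold, and they belong to different arms of the enzyme.

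Ndufs5, which sits on the intermembrane-space face of the membrane arm, had 2101 reads in MHC403 and 3474 in WT and was 1.65-fold (1.56 to 1.74) lower. Its value is uncertain, because 25.2% of the 36-base words in its transcripts also occur in BC002163, an entry with 3072 reads in MHC403 and 5044 in WT. BC002163 was 1.64-fold (1.57 to 1.71) lower, a ratio inside the interval of Ndufs5. Ndufa12, a matrix-arm subunit and the paralogue of the assembly factor Ndufaf2, had 5411 reads in MHC403 and 8260 in WT, 1.52-fold (1.47 to 1.58) lower. Ndufb10, an intermembrane-space subunit of the distal membrane arm, had 3566 and 5242 reads, 1.47-fold (1.41 to 1.53) lower. These 3 genes followed Ndufa3 and Ndufa5 in the order of the deficit, and their neighbours Ndufa12 and Ndufb10 did not differ beyond their counting intervals.

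At the other end, Ndufa11, a multi-span subunit of the membrane arm (chromosome 17, 56857185 to 56863671), had 1920 reads in MHC403 and 1628 in WT, 1.18-fold (1.11 to 1.26) higher, but its log2 ratio of 0.24 became -0.31 with median-of-ratios scaling, -0.30 with TMM and -0.052 with totals that leave out mitochondrial entries. It was the subunit with the highest ratio under every scaling, since scaling moves all genes alike. Ndufb6 of the distal membrane arm had 1339 reads in MHC403 and 1344 in WT, and Ndufb3 746 and 790, so both had intervals across a ratio of 1 with library totals, wholly below 1 with median-of-ratios scaling (log2 ratios of -0.55 and -0.63) and wholly above 1 with cardiomyocyte markers (0.28 and 0.20). These 2 genes were chosen after their values were seen, to complete the count above. The remaining accessory genes, from Ndufa9 at 1.42-fold (1.31 to 1.54) to Ndufb4 at 1.07-fold (1.01 to 1.14), formed a graded series of small deficits. They included the acyl carrier protein Ndufab1, with 2314 reads in MHC403 and 3135 in WT, and the X-linked genes Ndufa1, with 4856 and 6759, and Ndufb11, with 3320 and 3990.

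**Figure D2:**
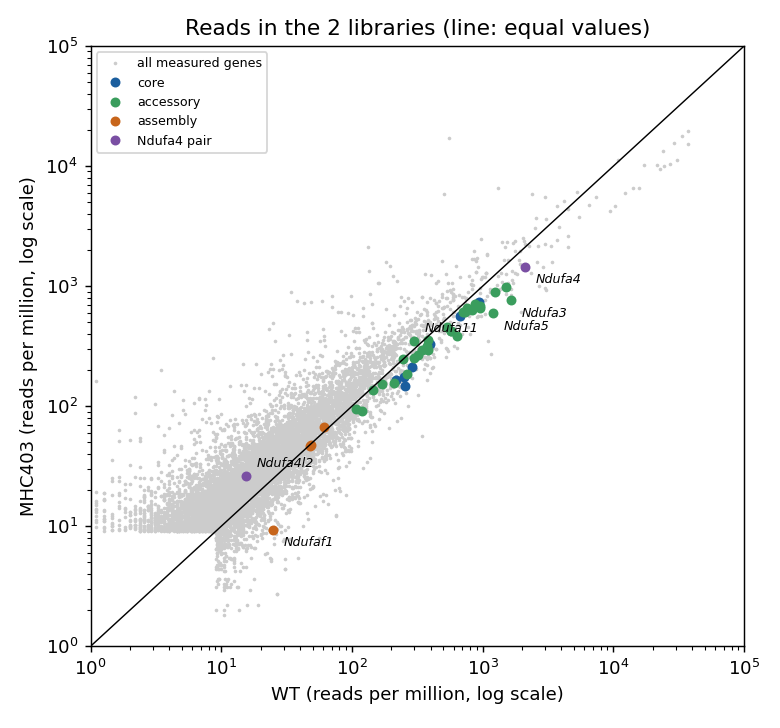
RPM in WT (x axis) and MHC403 (y axis), both on log scales, for the members by class over all measured genes in grey; the line marks equal values. Most members lie just below the line while most grey points lie above it, and Ndufa3, Ndufa5 and Ndufaf1 lie farthest below; Ndufa11 lies above it with library totals but not with median-of-ratios scaling.

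Genes of both arms were lower. All 16 matrix-arm genes had an interval wholly below 1, with a median log2 ratio of -0.39 and a range from -1.01 to -0.21. Of the 19 membrane-arm genes 16 did, with a median of -0.23 and a range from -1.10 to 0.24. The 9 accessory genes of the matrix arm had a median of -0.39, the value found for the 7 core genes of the same arm. The 4 subunit genes with the smallest deficits or with an excess (Ndufb4, Ndufb3, Ndufb6 and Ndufa11) all belong to the membrane arm, and these were named after their values were seen. Ndufab1, which is found in both arms, was left out of this comparison, and no test over genes was made.

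The 4 assembly factors of the set were split, with Ndufaf1 far below the other 3. Scaled to totals their median log2 ratio was -0.03, against -0.57 when scaled by median-of-ratios, and their summed reads, 935 in MHC403 and 996 in WT, gave an interval across 1 (0.860 to 1.03). Ndufaf3 and Ndufaf4, which act together on the quinone module, had 254 reads in MHC403 and 260 in WT, and 261 and 266. Ndufaf2, a chaperone of the late matrix arm also known as mimitin, had 369 and 333, a ratio of 1.11 (0.955 to 1.29). With library totals the intervals of these 3 genes held a ratio of 1. Their direction depended on the scaling: with median-of-ratios their log2 ratios were -0.58 (Ndufaf3), -0.57 (Ndufaf4) and -0.40 (Ndufaf2), each with an interval wholly below 0, and with cardiomyocyte markers 0.25, 0.25 and 0.43. The table also lists an entry mimitin with 369 and 331 reads whose windows overlap those of Ndufaf2, so these are largely the same reads. The interval of Ndufaf2 lay wholly above that of its paralogue Ndufa12 (0.634 to 0.680).

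Ndufaf1 is a member of the complex that assembles the membrane arm around the mitochondrially encoded ND2, and it had 51 reads in MHC403 and 137 in WT, 2.68-fold (1.93 to 3.77) lower. This was the lowest ratio of all 42 members and rested on the fewest reads in MHC403. Among 7 measured assembly factors outside the Nduf names 7 had a ratio below 1 and 4 an interval wholly below 1, with a median of -0.37. Of its partners in the same complex, Tmem186 had 38 reads in MHC403 and 58 in WT, 1.52-fold (0.994 to 2.36) lower, an interval that overlaps that of Ndufaf1. The deficits of the other partners were smaller than that of Ndufaf1 beyond the counting intervals. Ecsit had 264 reads in MHC403 and 341 in WT, 1.29-fold (1.09 to 1.52) lower, Tmem126b 102 and 124, 1.21-fold (0.926 to 1.59) lower, and Acad9 65 and 77, or 1.18-fold (0.839 to 1.67) lower. Aifm1, which supports the import of complex I subunits, was 1.58-fold (1.28 to 1.95) lower and Tmem70 1.57-fold (1.22 to 2.02) lower. Nubpl, which delivers iron-sulfur clusters to the enzyme, had 34 and 27 reads and did not reach the read minimum. Assembly factors thus lay on both sides of the subunit median, and whether the classes differ beyond animal variation could not be tested with 1 library per genotype.

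Ndufa4 and its paralogue Ndufa4l2 lay on opposite sides of 1, although with median-of-ratios scaling the log2 ratio of Ndufa4l2 was 0.23 with an interval across 0 (-0.16 to 0.64). Ndufa4, the most read member, had 7931 reads in MHC403 and 11531 in WT, 1.45-fold (1.41 to 1.49) lower. Ndufa4l2, known as a gene induced by hypoxia that restrains complex I activity, had 144 and 84, a ratio of 1.72 (1.30 to 2.28). It was the member with the highest ratio and the only one past 1.5-fold on the higher side, where 49.1% of all measured genes stood. Its ratio was under 1.5 with median-of-ratios and TMM scaling and with totals that leave out mitochondrial entries.

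The mitochondrially encoded subunits of the same enzyme had a much lower median than the nuclear ones, though the ranges overlapped. All 7 had an interval below 1, with a median of -1.29, and 6 were at least 2-fold lower. The range ran from mt-Nd5, 2.73-fold (2.70 to 2.75) lower with 61567 reads in MHC403 and 168364 in WT, to mt-Nd1, 1.68-fold (1.66 to 1.70) lower with 56031 and 94404. Neighbouring mitochondrial entries overlap and no source states whether reads were counted by strand, so single entries such as mt-Nd3 (2.66-fold, 2.58 to 2.75) and mt-Nd4l (2.04-fold, 2.01 to 2.06) are uncertain. The lowest nuclear core subunit, Ndufs1, had an interval that overlapped that of mt-Nd1 and lay above those of the other 6. Of the accessory subunits, Ndufa3 (2.15-fold, 2.07 to 2.23) was lower than mt-Nd4l and mt-Nd1. Ndufa5 (2.01-fold, 1.92 to 2.09) was lower than mt-Nd1 and its interval overlapped that of mt-Nd4l. Low ratios were not particular to the complex I entries of this chromosome. All 33 mitochondrially encoded entries had an interval below 1, with a median of -1.48, and 28 were at least 2-fold lower.

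Nuclear subunits of complexes II to V gave nearly the same median as complex I. In that list of 42 genes the median log2 ratio was -0.32, against -0.36 for the 36 core and accessory subunits of complex I, and 35 had an interval below 1. In this list 6 genes were at least 1.5-fold lower and 2 at least 1.5-fold higher. The lowest were Cox7a1 of complex IV, 2.00-fold (1.95 to 2.06) lower, and Uqcrb of complex III, 1.81-fold (1.57 to 2.09) lower. The highest were the complex IV genes Cox6a1, 2.09-fold (1.89 to 2.30) higher, and Cox8a, 1.78-fold (1.62 to 1.96) higher. The core and accessory genes of complex I had no member past 1.5-fold higher, and their central 50% spanned 0.25 against 0.32. No difference between the 2 lists was tested.

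**Figure D3:**
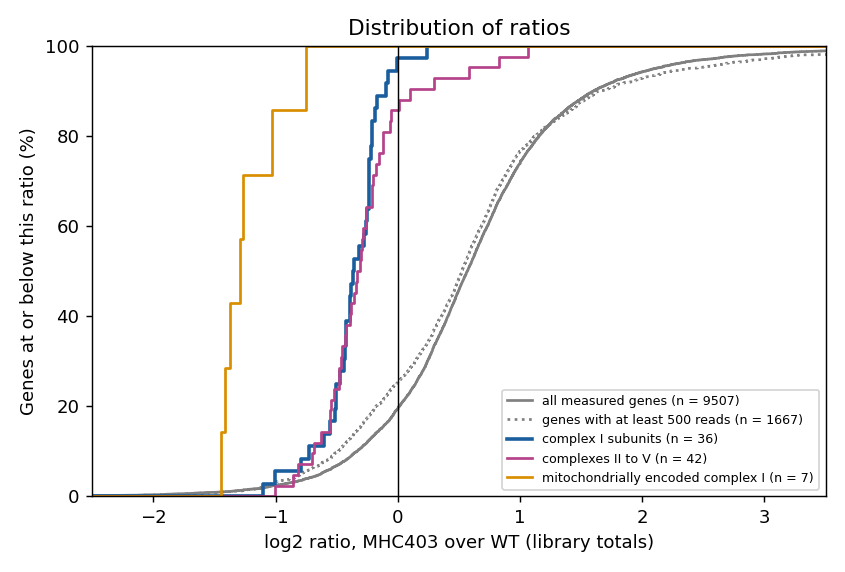
Share of genes (y axis, percent) at or below each log2 ratio of MHC403 over WT (x axis, cropped at both ends) for complex I subunits, complexes II to V, mitochondrially encoded complex I genes, all measured genes and the genes with 500 or more reads. The complex I and complexes II to V curves run together, with medians of -0.36 and -0.32, the mitochondrial curve lies farther left, and both grey curves lie to the right with medians of 0.57 and 0.53.

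The size of the deficit depended on the scaling, and its place relative to other genes did not, because a scaling moves every gene by the same amount. Mitochondrially encoded entries took 13.7% (13.6 to 13.7) of MHC403 reads and 29.5% (29.5 to 29.6) of WT reads. With totals that leave these entries out, 22 members were at least 1.5-fold lower, against 10.9% of measured genes, and 5 at least 2-fold lower, against 4.21%. With median-of-ratios scaling, which centres the measured genes near 0, 36 members were at least 1.5-fold lower, against 18% of measured genes, and 12 at least 2-fold lower, against 7.59%. TMM, a trimmed-mean scaling, gave 36 against 17.9% and 12 against 7.55%. The members' median then lay at -0.89 and that of all measured genes at 0.02. The distance between these medians was 0.91 under each scaling.

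Markers of cell types were compared between the libraries too. The 8 cardiomyocyte markers summed to 31842 RPM (reads scaled to the library total) in WT and 26254 in MHC403. Of these 8, 4 were at least 1.5-fold lower, against 5.62% of measured genes, and 1 at least 1.5-fold higher, against 49.1%. They ranged from Ckm, 1.82-fold (1.76 to 1.87) lower, to Actn2 at a ratio of 1.56 with its interval above 1. The 6 fibroblast markers summed to 415 RPM in WT and 2285 in MHC403, with 6 of 6 at least 1.5-fold higher, against 49.1% of measured genes. The 6 macrophage markers summed to 106 and 288, with 5 of 6 past that fold and Cd163 at a ratio of 1.04 (0.749 to 1.45). The 6 endothelial markers summed to 777 and 958, a ratio of 1.23, under the median ratio of 1.48 of all measured genes. They ranged from Kdr, 1.40-fold (1.16 to 1.69) lower, to Pecam1 at a ratio of 1.84 (1.59 to 2.13). The 3 erythroid markers summed to 1520 and 2547, a ratio of 1.68. None of these markers had 0 reads in a library. Reads were also scaled to the summed cardiomyocyte markers in place of library totals, a choice made after the data were seen. Tnnt2 was the largest part of this sum, with 61930 of 143577 reads in MHC403 and 58949 of 174531 in WT. The members' median was then -0.06 and that of all measured genes 0.85. Of the 42 members 22 had a ratio below 1, with the interval wholly below 1 in 18 and wholly above 1 in 8. The same shares of all measured genes were not computed under this scaling, so these counts do not place the members among other genes. By the medians, the members still lay 0.91 below all measured genes. At least 1.5-fold lower were 3 members, against 3.05% of measured genes, and at least 2-fold lower 1, against 1.31%. Ndufa3 was the subunit with the lowest ratio under that scaling as well, since a scaling moves all genes alike. The part that the mix of cells plays in the complex I values was not tested.

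**Figure D4:**
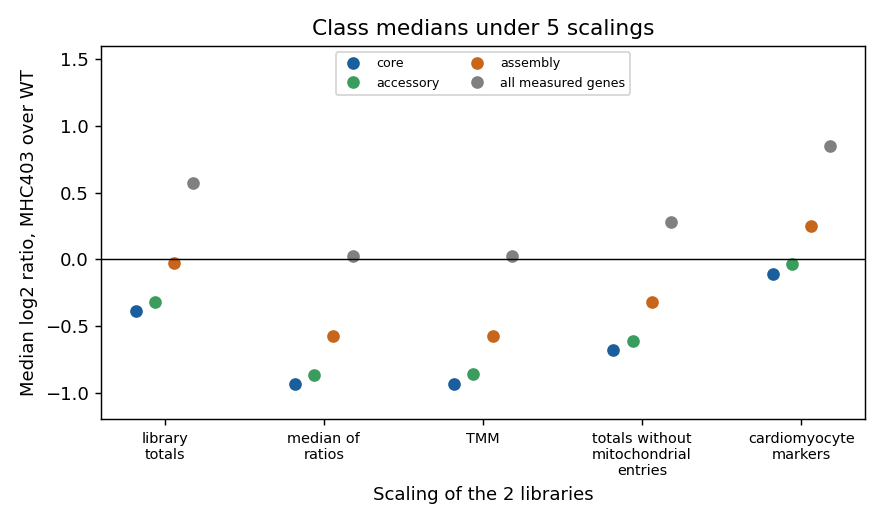
Median log2 ratio of MHC403 over WT (y axis) for core, accessory and assembly genes and for all measured genes, under 5 scalings of the libraries (x axis); each point is a median over genes of 1 pair of libraries. The order of the 4 medians cannot change, because a scaling moves every gene by the same amount. The core median moves from -0.94 with median-of-ratios scaling to -0.11 with cardiomyocyte markers.

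Promoter sequences were examined because the subunit genes moved together. RefSeq promoters of the GRCm38.p6 build, 250 bases before to 50 after an annotated start, were matched by symbol for 37 of the 42 members. Ndufa2, Ndufa4l2, Ndufb9 and Ndufs1 were among those not matched. The matched promoters had a median GC content of 59.3%, against 61.7% for those of the 6110 measured genes that had any and 52.7% for all promoters. Words known from factors that control respiratory genes were searched on both strands. The YY1 word AAGATGGC was found in 7 of 37 members (18.9%), against 5.88% of measured genes and 3.19% of all genes with a promoter. The NRF1 word CGCATGCG was in 3 (8.11%, against 4.89% of measured genes), the ETS word CCGGAAGT in 1 (2.70%, against 9.62%) and the ERR word TCAAGGTCA in 0, against 0.311%. Of 32 genes of complexes II to V with a promoter, 7 (21.9%) had the NRF1 word and 4 (12.5%) the ETS word. The ERR word and the YY1 word were each in 2 of these 32 (6.25%). Thus the NRF1, ETS and ERR words were more frequent there than in the members, and the YY1 word less. No word overlapped another in a member's promoter, and no member had more than 1 of the 4 words.

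The 7 YY1 words all lay on the sense strand, 22 to 38 bases after the annotated start, which counts as base 0. The word contains ATG, the letters of a start codon, and where translation starts in these genes was not examined. In this window of 20 to 40 bases, set after the positions were seen, the word occurred in 1.80% of measured genes and in 1 of 32 genes of complexes II to V. The members that carried it had a median log2 ratio of -0.38, and those without it -0.25. The stretches are shown 5′ to 3′ on the gene's strand, with the YY1 word in capitals, to let the shared position be seen; 3 of them end with the promoter entry.
Ndufa3 (chr7:3617384-3617413, + strand): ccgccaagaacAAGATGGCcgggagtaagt
Ndufc1 (chr3:51408915-51408944, - strand): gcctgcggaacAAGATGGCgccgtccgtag
Ndufs7 (chr10:80249462-80249491, + strand): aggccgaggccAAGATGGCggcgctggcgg
Ndufa9 (chr6:126849097-126849126, - strand): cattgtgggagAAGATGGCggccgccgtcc
Ndufs6 (chr13:73328433-73328460, - strand): gggtcaccggcAAGATGGCggcggtgct
Ndufs4 (chr13:114388045-114388070, - strand): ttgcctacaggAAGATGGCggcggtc
Ndufb8 (chr19:44555393-44555415, - strand): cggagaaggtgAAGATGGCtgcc
Their genes ran from Ndufa3, the lowest subunit, to Ndufc1, 1.12-fold (1.02 to 1.23) lower with 831 reads in MHC403 and 935 in WT, so carriers of the word lay along most of the range of the subunits.

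The whole promoters of the subunit with the lowest ratio, Ndufa3, and of the one with the highest, Ndufa11, are given for contrast, with any of the 4 words in capitals. Ndufa3 has 51.3% GC and the YY1 word after the start, and Ndufa11 has 54.3% GC and the NRF1 word 59 bases before it. The ratio of Ndufa11 falls below 1 with median-of-ratios and TMM scaling and without mitochondrial entries. Ndufaf1, the assembly factor with the lowest ratio, has 50.3% GC and none of the 4 words.
Ndufa3 (chr7:3617123-3617422, + strand): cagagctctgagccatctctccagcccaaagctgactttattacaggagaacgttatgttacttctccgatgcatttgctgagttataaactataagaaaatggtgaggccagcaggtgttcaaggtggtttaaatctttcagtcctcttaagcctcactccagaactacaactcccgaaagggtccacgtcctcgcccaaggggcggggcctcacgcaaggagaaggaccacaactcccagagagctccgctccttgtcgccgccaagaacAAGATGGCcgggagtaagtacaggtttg
Ndufa11 (chr17:56717512-56717811, + strand): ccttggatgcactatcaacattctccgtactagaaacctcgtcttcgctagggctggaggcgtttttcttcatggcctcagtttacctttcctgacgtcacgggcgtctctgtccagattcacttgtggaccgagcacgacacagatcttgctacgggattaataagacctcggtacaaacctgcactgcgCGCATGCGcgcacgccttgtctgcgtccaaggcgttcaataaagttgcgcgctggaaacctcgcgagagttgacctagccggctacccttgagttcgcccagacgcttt
Ndufaf1 (chr2:119662785-119663084, - strand): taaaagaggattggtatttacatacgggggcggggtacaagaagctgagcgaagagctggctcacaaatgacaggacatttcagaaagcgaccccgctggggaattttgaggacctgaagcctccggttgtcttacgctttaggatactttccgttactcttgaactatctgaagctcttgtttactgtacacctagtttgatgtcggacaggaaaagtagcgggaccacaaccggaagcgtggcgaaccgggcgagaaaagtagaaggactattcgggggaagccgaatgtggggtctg
A match is a description of letters in this window and no binding was measured here.

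Many complex I genes start back to back with another gene. In the deposited mm9 positions 14 of 42 members (33.3%) had a start of another entry within 1000 bases upstream on the other strand, against 16.4% of measured genes. In 7 of these pairs the neighbour was measured too. The start of Ndufs1 lay 8 bases from that of Eef1b2, a translation elongation factor, which had 1830 reads in MHC403 and 1276 in WT, a ratio of 1.44 (1.34 to 1.55), where Ndufs1 was 1.73-fold lower. Ndufa7, 115 bases from the ribosomal protein gene Rps28, had 1615 reads in MHC403 and 2085 in WT, while Rps28 had 7210 and 4901, a ratio of 1.47 (1.42 to 1.53). In these 2 pairs, genes that start close together had intervals that do not overlap, whatever the scaling, since it moves both genes alike. With library totals they lay on opposite sides of 1, but with median-of-ratios scaling Eef1b2 stood at a log2 ratio of -0.024 and Rps28 at 0.013, both with intervals across 0, and with TMM at -0.022 and 0.015.

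Other pairs lay on the same side with library totals. Ndufa5 starts 456 bases from Asb15, a muscle-expressed gene of the ubiquitin ligase family, which had 83 reads in MHC403 and 362 in WT, a log2 ratio of -2.12 beside -1.01 for Ndufa5. Ndufb5 starts 307 bases from Mrpl47, a mitochondrial ribosomal protein with 59 and 88 reads, and Ndufs3 62 bases from Kbtbd4, with 78 and 93. In all, 4 of the 7 measured neighbours had a higher ratio than their complex I gene and 3 a lower one. The windows of Ndufb11 overlap those of its neighbour Rbm10, which had 88 and 119 reads, so reads of this pair may be listed under both.

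**Figure D5:**
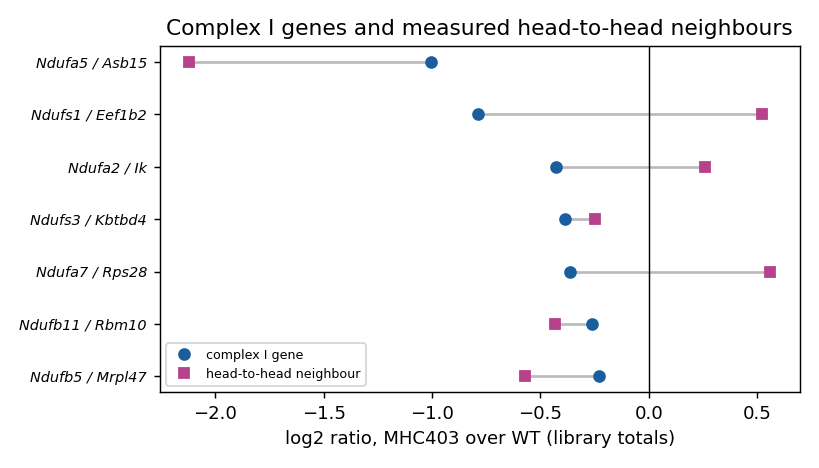
Log2 ratio of MHC403 over WT (x axis, library totals) for the 7 complex I genes whose head-to-head neighbour was also measured; circles are complex I genes and squares their neighbours, joined by a line. Eef1b2, Rps28 and Ik lie right of 0 while their partners lie left of it, but with median-of-ratios scaling Ik turns to -0.29 and Eef1b2 to -0.024, and Asb15 lies farthest left at -2.12.

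Some members resemble other sequences in the genome. Of the 42 members 8 shared over 10% of their 36-base words with transcripts of another gene, and 14 shared none. The same shares were not computed for other genes. Besides Ndufs5 the 8 included Ndufs3 (20.6%), Ndufa12 (19.5%) and Ndufb4 (18.9%), whose closest matches are not entries of the table under those names. Some of their reads may thus be uncertain. The words were taken over whole transcripts, while reads collect near start sites, so the share of reads concerned is not known. Ndufa3 shared none, and Ndufa5 0.486%. The authors' deposited table also gives a score of MHC403 against WT, with no stated meaning or formula, which was above 0 in 13 of 42 members (31.0%) and in 34.7% of entries with at least 20 reads in both libraries. Of those entries that also had 500 or more reads in the higher library, a depth nearer to that of most members, 44.7% had a score above 0. Ndufa3 had the highest score of the members, 61, a value reached or exceeded by 60 of all entries in the authors' deposited table, followed by Ndufab1 with 34 and Ndufs1 with 31.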

How the data were processed

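Per the labels' protocols, heart RNA was extracted with Trizol and intact polyA RNA was sequenced after size selection and linear amplification, without fragmentation. Per the submitters' processing notes, TopHat 1.0.14 and the mm9 build were used; no source states the counting program or its use of strand. Per the file headers, the authors deposited whole-number read counts per gene, RPM (recomputed from the counts to within 4.94e-06), a fold ratio of MHC403 over WT, a p-value whose test is not stated and was not used, and a score of MHC403 against WT with no stated formula.

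Counts were scaled to library totals (5468677 and 5481123), and ratios were given with exact 95% intervals conditional on a gene's reads. The code for this step was run on data simulated with the counting error that the intervals assume, which cannot show whether real reads follow it. The intervals cover counting error only. Amplified reads carry no molecular identifiers here, so repeated reads of the same molecule cannot be set apart and the intervals may be too narrow. The read minimum was 50 in the higher library, and folds of 1.5 and 2 were used for counts. TMM factors came from edgeR 4.0.16 (R 4.3.3), other values from Python 3.11.15 and scipy 1.17.1. Table starts were 0-based (4829 entries matched a transcript span on that reading, 639 on the other) and are written 1-based.

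Named genes were the core subunits, of which 1 is not reported here on its own, the 5 lowest and 3 highest accessory and assembly genes by the nearer bound of the interval (1 accessory gene had an interval above 1), the Ndufa4 pair, and the 2 lowest and 2 highest of other lists; others are named with the reason or as examples. Members, classes, lists and rules were chosen with earlier results of these data known. Of 10 other assembly factors listed, 8 were entries of the table.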

Additional observations from a re-analysis of the deposited data

How the results depend on the processing

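Direction and size were recomputed under other scalings, read minimums and memberships. With median-of-ratios scaling 36 members were at least 1.5-fold lower, 0 higher and 12 at least 2-fold lower, the medians were -0.94 (core), -0.86 (accessory) and -0.57 (assembly), and the log2 ratio of summed reads was -0.99; with TMM these were 36, 0, 12, -0.93, -0.86, -0.57 and -0.99. Without mitochondrial entries in the totals they were 22, 0, 5, -0.68, -0.61, -0.32 and -0.74. Scaled to cardiomyocyte markers, 3 were at least 1.5-fold lower (3.05% of measured genes) and 1 at least 2-fold lower (1.31%). The medians were then -0.11, -0.039 and 0.25 and the summed value -0.17. Ndufa11 turned to -0.31, -0.30 and -0.052 under the first 3 of these scalings, and Ndufs7 and Ndufv2 to 0.023 and 0.040 under the last. A minimum of 200 reads, which drops Ndufa4l2, and leaving out the Ndufa4 pair each gave 0 members past 1.5-fold higher. Without members that overlap other entries the summed value was -0.46. These shifts follow from the construction of each alternative. All members have more than 20 reads, so a minimum of 20 or none left their values as they were. No entry was named as a pseudogene, so that part of the planned exclusion removed nothing. No paired analysis was possible because each genotype had 1 pooled library, and leaving out a replicate was not possible for the same reason.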
